A study of Mus musculus with 6 samples.

Results

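Of 18420 counted loci, 13115 were coding loci that met the limits on structure and position given below. Between the undifferentiated state and day 6 of differentiation, 54 of these were switched on in mouse embryonic stem (ES) cell cultures. Each had a clear signal in every day 6 library and a much lower one, or none, in every day 0 library. Over loci of all kinds, 77 met the same limits on counts. A locus is here a group of overlapping transcript models that the authors assembled from their reads, and it is known by its assembly number and its mm9 position. The 54 switched-on loci were taken from the coding ones, which have a model matching an annotated transcript and a protein identifier on some model. They have at least 2 exons, span under 400 kb, lie on an autosome and lie outside 4 windows that hold the Hox clusters. Each had at least 500 normalized counts in all 3 day 6 libraries and under 100 in all 3 day 0 libraries. A normalized count is a read count divided by 1 size factor per library, so that libraries can be compared. The loci were chosen by their levels at both stages, so these levels and their changes are given as a description with no test.

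The day 6 group consisted of embryoid bodies, grown from hanging drops of 1000 cells each and set on the way to heart cells. The day 0 group consisted of the same ES cells before induction, kept with 1000 U/ml of LIF, a cytokine that holds ES cells undifferentiated, either on feeder layers of mouse embryonic fibroblasts or on gelatin. Both groups were of one reporter line in which a bacterial artificial chromosome carries EmGFP, a green fluorescent protein, under Nkx2.5, a regulator of early heart cells. The labels disagree on the strain: each sample is labelled C57BL/6J, while the growth protocol gives 129/OlaHsd and the subline E14Tg2A.4. RNA came from whole cultures, with no sort for EmGFP named, and the 3 libraries of each stage are biological replicates according to the design text.

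ES cells form cell types of all germ layers when LIF is withdrawn and the cells aggregate, and embryoid bodies are therefore mixtures that include heart, blood, vessel and gut precursors. Many genes that specify or mark these lineages are silent, or nearly so, in ES cells and are transcribed once a lineage forms. In bulk RNA of such a mixture, more cells of a type and more RNA per cell cannot be told apart. The assembly gives no gene symbols, and its annotation identifiers were found in none of the name tables used here (0 of 119 identifiers of the switched-on loci matched), so the loci carry no gene names below. For the same reason the stage labels were not tested against stem cell or heart markers, and the part of feeder RNA in the day 0 counts was not tested.

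Libraries held 106306699 to 114092201 counted reads. The switched-on loci together made up 0.116%, 0.106% and 0.0944% of the normalized counts in day 6 replicates 1, 2 and 3, and 0.00188%, 0.00134% and 0.00153% in day 0 replicates 1, 2 and 3. Their summed normalized counts were 133314, 124005 and 105802 at day 6, against 1851, 1573 and 1623 at day 0. All of them passed the filter on low counts, which their day 6 values alone ensured. By limma at a threshold of 0.05 on the Benjamini-Hochberg adjusted p, all 54 were called higher at day 6, where 22.2% of the 17145 tested loci were higher and 21.8% lower. Among the 12647 tested coding loci that meet the structural part of the rule, 23.0% were higher and 20.3% lower. The count of the switched-on loci is fixed by the rule itself, and nothing is read from it.

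**Figure D1:**
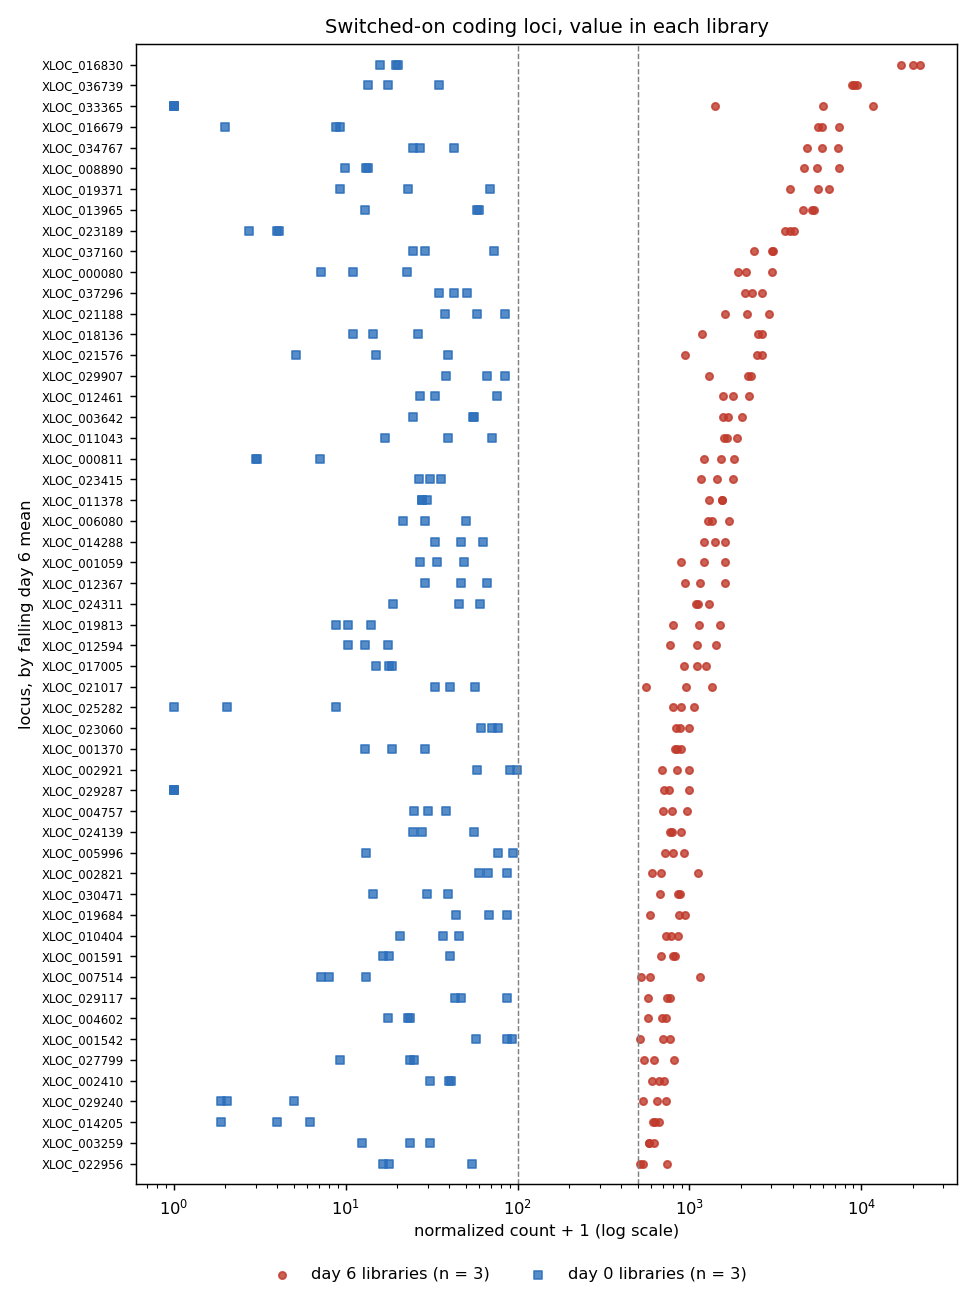
Normalized count + 1 (log scale) of each of the 54 switched-on loci in the 3 day 6 libraries (circles) and the 3 day 0 libraries (squares), ordered by falling day 6 mean. Dashed lines mark 500 and 100 normalized counts: all circles lie at or right of the upper line and all squares left of the lower one, as the rule requires, and day 6 means run from 597 to 19593.

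Day 6 means of the switched-on loci ran from 597 to 19593 normalized counts, with a median of 1160.3, and their day 0 means from 0 to 81.2, with a median of 30.2. At day 6, 8 loci averaged at least 5000 normalized counts, 15 at least 2000 and 30 at least 1000. At day 0, 9 loci averaged under 10, and 2 of these had no read at all. Fitted changes on the log2(normalized count + 1) scale ran from 3.07 to 12.17 with a median of 5.51, against a median of 0.02 over all tested loci, and they exceeded 5 for 34 loci and 7 for 15. The added 1 can understate the change of loci with few day 0 reads.

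The thresholds cut through a continuous range. Just inside the day 6 limit lay XLOC_001542, XLOC_022956 and XLOC_007514, whose lowest day 6 values were 511, 516 and 519 normalized counts, and just outside it XLOC_012608, XLOC_000890 and XLOC_011909 with 496, 483 and 481. Just inside the day 0 limit lay XLOC_002921, XLOC_005996 and XLOC_001542, whose highest day 0 values were 97.7, 93.2 and 91.7, and just outside it XLOC_002418, XLOC_014004 and XLOC_000535 with 103.6, 103.6 and 109.9. XLOC_001542 lay near both limits and had the smallest fitted change of the set, 3.07.

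Levels per exonic kilobase take account of length, here that of the merged exons of all models of a locus. That length can grow with the number of models, and how far this moved the order of loci was not tested. By this measure XLOC_033365 had the highest day 6 level. This compact locus on chromosome 7 (110990152 to 110991676, minus strand) has 3 exons. Its day 6 libraries held 11617, 5948 and 1406 normalized counts in replicates 1, 2 and 3, and none of the day 0 libraries held a read. The mean of 6323 ± 5116 normalized counts (SD, n = 3), or 6587 per exonic kilobase, hides an 8.26-fold range between the embryoid body libraries. Against a limit of 3 reads per library, which a count of 0 in a single library allows, the day 6 mean was at least 2177-fold higher. Such limits cover counting error only.

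Second by this measure was XLOC_016679 on chromosome 18 (20823751 to 20832827, plus strand), with 4 exons and a single transcript model. It had 5599.9, 7376 and 5872 normalized counts in the day 6 libraries and 7.85, 8.29 and 0.997 in the day 0 libraries. Its day 6 level was 5146 normalized counts per exonic kilobase, and the ratio of the means was 1100.1. The day 6 replicates kept close together, within 1.32-fold, while day 0 replicate 3 held a lone read.

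XLOC_036739 on chromosome 9 (75623156 to 75748121, plus strand) varied least between embryoid body libraries among the 8 loci that averaged at least 5000 normalized counts. Its values were 9069, 9462 and 8872 normalized counts at day 6, against 16.6, 12.4 and 33.9 at day 0, and its day 6 level was 2378 per exonic kilobase. The highest day 6 library was 1.07-fold the lowest, and the stages lay far apart.

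XLOC_023189 on chromosome 3 (81762336 to 81779650, minus strand), with 12 exons and a single model, reached 2341 per exonic kilobase. It held 3849, 4043 and 3577 normalized counts at day 6 and 1.74, 3.11 and 2.99 at day 0. With 3823 ± 234 against 2.61 ± 0.755 normalized counts (SD, n = 3 each), its mean was 1462-fold higher at day 6, on a handful of day 0 reads.

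The next levels per exonic kilobase were 1500.2 for XLOC_034767 on chromosome 8 (106625525 to 106668403, plus strand) and 1369.8 for XLOC_011043 on chromosome 14 (37915326 to 37927208, minus strand). XLOC_034767 had 7342, 5938 and 4844 normalized counts at day 6, against 26.2, 23.8 and 41.9 at day 0. XLOC_011043 had fewer reads on a shorter transcript, 1597, 1646 and 1881 normalized counts at day 6, against 38.4, 70.4 and 16 at day 0. Its day 0 level of 33.4 per exonic kilobase stood beside that of XLOC_001542, 33.2, at the upper end of the set, where the median was 5.54.

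XLOC_008890 on chromosome 13 (89680175 to 89751443, plus strand) followed with 1140.0 per exonic kilobase. Its libraries held 7386, 5484 and 4664 normalized counts at day 6 and 12.2, 12.4 and 8.97 at day 0. XLOC_021188 on chromosome 2 (147868589 to 147872705, minus strand) came next with 989 per exonic kilobase and with the libraries in the other order: 1617, 2175 and 2913 normalized counts in day 6 replicates 1, 2 and 3, against 36.6, 83.9 and 56.8 at day 0. Over the whole set day 6 levels ran from 35.1 to 6587 per exonic kilobase with a median of 289. In the order of the leading 8, the library values of XLOC_016679 lay wholly above those of XLOC_036739, and those of XLOC_023189 above those of XLOC_034767. All other neighbours in that order overlapped, XLOC_033365 and XLOC_016679 included.

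By total normalized counts XLOC_016830 led. It spans chromosome 18 from 53614380 to 53761257 on the plus strand, has 11 transcript models and 37.8 kb of exonic sequence, and so stood at only 518 per exonic kilobase. The day 6 libraries held 21974, 19890.0 and 16916 normalized counts, against 19.2, 18.6 and 15 in the day 0 libraries. It alone supplied 16.5%, 16% and 16% of the summed day 6 normalized counts of the set in replicates 1, 2 and 3.

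Among loci with a read in every day 0 library, the fitted log2 changes were largest for XLOC_016679 (10.15, SE 0.57), XLOC_023189 (10.07, SE 0.29), XLOC_016830 (10.04, SE 0.22), XLOC_008890 (8.89, SE 0.28) and XLOC_036739 (8.82, SE 0.35). The order of the leading 3 lies within these errors. XLOC_000811 on chromosome 1 (5903754 to 5908236, minus strand) changed by 8.54 (SE 0.41), with 1811, 1524 and 1212 normalized counts at day 6, against 6.11, 2.07 and 1.99 at day 0. It has only 2 exons.

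XLOC_029240 on chromosome 6 (48634577 to 48642290, plus strand) changed by 7.89 (SE 0.45) at a low day 6 level, with 734, 648 and 535 normalized counts against 0.872, 1.04 and 3.99 at day 0. XLOC_019371 on chromosome 2 (84939414 to 85047946, plus strand) changed by 7.72 (SE 0.64). It held 6472, 5585 and 3835 normalized counts at day 6, against 68, 8.29 and 21.9 at day 0, and its day 0 libraries spread more widely than its day 6 libraries. Of its exonic bases, 38.4% also lie in exons of other loci, which makes its counts uncertain, since the labels do not say how shared reads were counted.

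The other locus with no day 0 read, XLOC_029287 on chromosome 6 (55967509 to 55982682, plus strand), had 708, 759.6 and 994 normalized counts at day 6. Its day 6 mean was at least 282-fold higher than the day 0 limit. Unlike XLOC_033365, its embryoid body libraries lay within 1.4-fold of each other.

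Some loci had many transcript models. XLOC_007514 on chromosome 12 (71345519 to 71449013, minus strand) had 18 models, the most of the set, and 21.4 kb of exonic sequence. Its day 6 level per exonic kilobase was the lowest, 35.1. Its day 6 libraries held 586, 519 and 1150.3 normalized counts, with replicate 3 well above the others, against 12.2, 6.21 and 6.98 at day 0. XLOC_025282 on chromosome 4 (62804313 to 62833186, minus strand) had 16 models and up to 26 exons, with 805, 1063 and 891 normalized counts at day 6, against 7.85, 1.04 and 0 at day 0.

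XLOC_021017 on chromosome 2 (118530616 to 118554482, minus strand) had 13 models and up to 32 exons. Its day 6 libraries held 1349.5, 955 and 558 normalized counts, a 2.42-fold range, against 55.8, 39.4 and 31.9 at day 0. XLOC_016830 and XLOC_014288 tied for the next place with 11 models each. XLOC_014288 on chromosome 16 (95580776 to 95808200, minus strand) held 1601, 1405 and 1216 normalized counts at day 6, against 61.9, 32.1 and 45.9 at day 0.

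Outside the lists by level, change, models and day 6 ratio lay 37 loci. Among them are XLOC_014288 and the loci named only for lying next to a threshold. The 37 averaged 597 to 5015 normalized counts at day 6 (median 856) and 0 to 81.2 at day 0 (median 35.2). Their fitted log2 changes ran from 3.07 to 9.67 with a median of 4.97, so the set as a whole holds many loci of moderate level beside the few abundant ones.

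Embryoid body libraries differed from each other more at the switched-on loci than at other coding loci in the same range of day 6 means. The ratio of the highest to the lowest day 6 library had a median of 1.36 over the 54 loci and 1.13 over 7010 other coding loci. These others lay higher within that range, with a median day 6 mean of 4393 normalized counts against 1160.3, so both sets were also split at a day 6 mean of 2000, a split chosen after the data were seen. The ratio was at least 1.5 for 20 of 54 switched-on loci (37.0%) and for 278 of the others (3.97%), and at least 2 for 5 (9.26%) and 29 (0.414%). The median coefficient of variation of the day 6 libraries was 15.6% against 6.35%. Below a day 6 mean of 2000 the median ratio was 1.34 for 39 switched-on loci and 1.18 for 1853 others, and at or above it 1.52 for 15 and 1.12 for 5157. The rule set only a minimum for each day 6 library, and no test was made of this difference, since the members share libraries.

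XLOC_033365 varied most, by 8.26-fold. XLOC_021576 on chromosome 2 (180055582 to 180069384, minus strand) followed with 2.81-fold, from values of 2641, 2474 and 942 normalized counts at day 6, against 38.4, 4.14 and 14 at day 0. XLOC_018136 on chromosome 19 (45223911 to 45231434, plus strand) varied 2.25-fold, with 2492, 2647 and 1175 normalized counts at day 6 and 25.3, 13.5 and 9.97 at day 0. In these 3 loci and in XLOC_021017 day 6 replicate 3 was the lowest library.

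A pair of opposite orders of the embryoid body libraries were the most frequent. Replicate 1 was the highest and replicate 3 the lowest library at 22 loci (40.7%, against 22% of the other coding loci in the same range). The reverse held at 12 loci (22.2% against 17.9%). Below a day 6 mean of 2000 the first order held at 15 loci (38.5% against 23.0%). Examples of the reverse, chosen after their values were seen, are XLOC_001059 with 887, 1219.9 and 1612 normalized counts in day 6 replicates 1, 2 and 3, against 33.1, 47.6 and 25.9 at day 0. XLOC_019813 had 798, 1140.0 and 1507 at day 6, against 7.85, 9.32 and 13 at day 0, and XLOC_012594 had 769.6, 1106 and 1423 against 16.6, 9.32 and 12. The sum over the set was lowest in replicate 3, although size factors put the libraries on a common scale. At day 0 the highest library was replicate 1 for 28 of the 52 loci with day 0 reads, and replicates 2 and 3 for 12 each. The share over other coding loci was not taken for day 0, and nothing is read from this count.

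**Figure D2:**
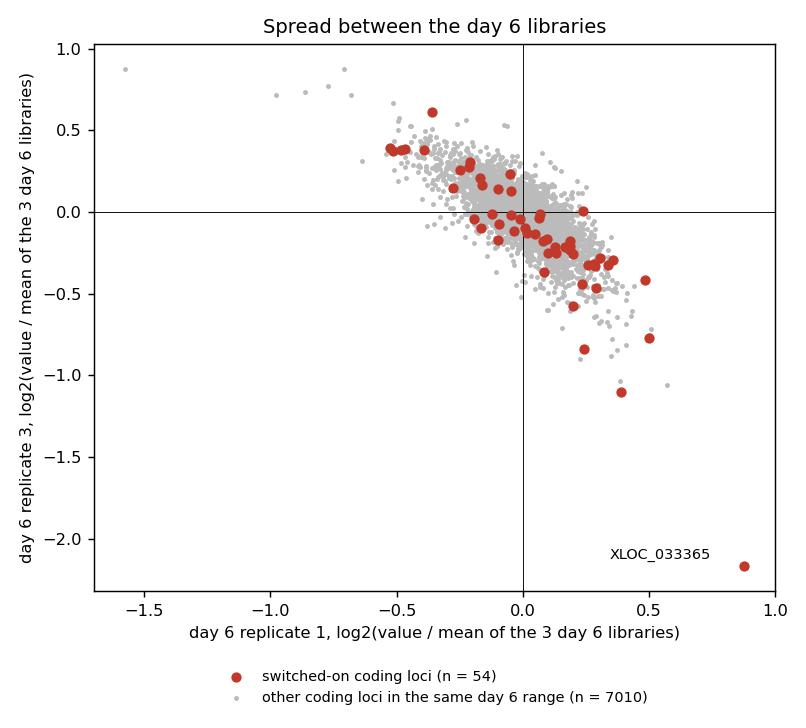
Each point is a coding locus, placed by its value in day 6 replicate 1 (x) and day 6 replicate 3 (y), each as log2 of the value over the mean of the 3 day 6 libraries. The 54 switched-on loci (large points) scatter more widely than the 7010 other coding loci in the same range of day 6 means (small points), and XLOC_033365, with an 8.26-fold range, lies farthest out.

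The switched-on loci tended to have fewer exons than coding loci at large. Their longest models had a median of 7 exons, against 10 among the 13115 coding loci that meet the structural part of the rule, and a median exonic length of 5.01 kb against 7.24 kb. They had a median of 4 transcript models against 5, and of 2 start sites against 3. A model that splices differently from the annotation was present at 39 of the 54 (72.2% against 80.1%), and more than 1 start site at 40 (74.1% against 78.1%). The fewest exons the rule admits, 2, were found at 4 loci (7.41% against 3.88%), and a single model at 6 (11.1% against 7.98%).

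A second comparison set holds the 35 coding loci that went the other way, with under 100 normalized counts in every day 6 library and at least 500 in every day 0 library. They had the same median number of exons, 7, and of models, 4, and a median exonic length of 4.23 kb. Their genomic spans were shorter, with a median of 18.7 kb against 37.6 kb for the switched-on loci. A span over 100 kb was found for 17 switched-on loci (31.5%), for 0 of the 35 switched-off loci and for 16.4% of all structurally eligible coding loci. These are descriptions with no test.

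Few switched-on loci share sequence with neighbours. No exonic base was shared with another locus at 41 of 54 (75.9%), against 91.4% of the switched-off loci and 58.5% of all eligible coding loci, and over 10% was shared at 5 (9.26%, against 2.86% and 32.2%). Loci with much shared sequence have uncertain counts, and there were few of these here. How this relates to the thresholds was not tested.

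**Figure D3:**
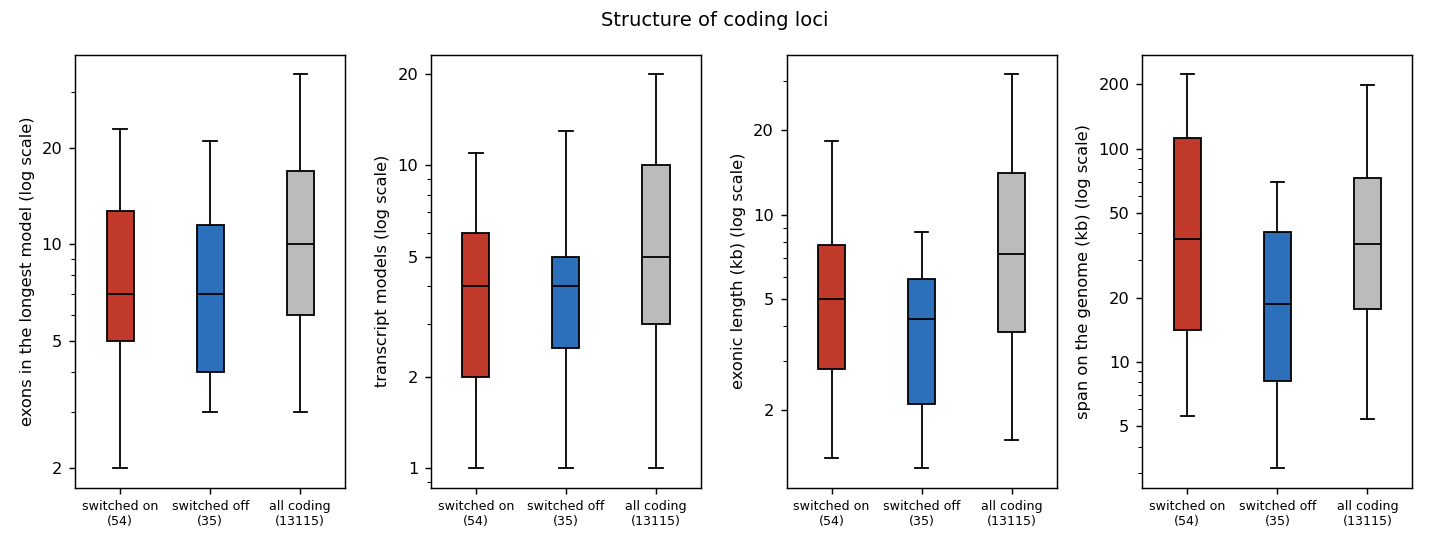
Exons in the longest model, transcript models, exonic length and genomic span (all log scales) of the 54 switched-on, 35 switched-off and all 13115 eligible coding loci. Boxes run over the middle of each distribution between the lower and upper quartile with the median as a line, and whiskers reach the 5th and 95th percentiles. Median spans were 37.6 kb for switched-on, 18.7 kb for switched-off and 35.5 kb for all eligible loci.

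On the genome the switched-on loci were scattered. They lay on every autosome but chromosome 17, which has 640 eligible loci, and chromosomes 1 and 2 held 6 each. In all, 54 of 13115 eligible loci were switched on. The highest shares of the eligible loci of a chromosome were 0.860% on chromosome 18, 0.758% on chromosome 10 and 0.725% on chromosome 6. These rest on only 3, 5 and 5 switched-on loci, and their order was not tested. Chromosomes 1 and 2 came to 0.699% and 0.562%. No pair lay within 100 kb of each other. The closest, XLOC_003642 and XLOC_002921 on chromosome 10, were 687.7 kb apart and on opposite strands, and the next closest pair was 3697.7 kb apart. Of the 54, 22 are on the plus strand.

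Loci beside the switched-on ones, which the rule did not choose, were higher at day 6 more often than loci at large. Of 92 tested loci within 50 kb, 41 were called higher (44.6%) and 6 lower (6.52%), where the background over all tested loci is 22.2% higher and 21.8% lower. Their median log2 change was 0.47, against 0.02 over all tested loci. The calls use the same limma fit and threshold over 3 libraries against 3, and no test of the set was made.

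The share was 44.7% higher (17 of 38) within 10 kb, 44.4% (24 of 54) from 10 to 50 kb and 33.1% (59 of 178) from 50 to 200 kb, and the share lower rose with distance to 17.4% in the last class. It was similar on both strands, with 20 of 46 on the strand of the switched-on locus and 21 of 46 on the other. Among flanking loci that share no exonic base with any locus, 26 of 58 were called higher (44.8%) and 6 lower (10.3%). Beside the 35 switched-off loci the picture was turned, with 12 of 92 flanking loci called higher (13.0%) and 32 lower (34.8%). Of the 54 switched-on loci, 44 had a counted locus within 50 kb, 28 had at least 1 called higher and 5 at least 1 called lower. XLOC_010404 had 4 flanking loci called higher, and XLOC_016830 and XLOC_029240 had 3 each. At each of the 3 loci 2 of these were called in every fit with 1 library left out: XLOC_010406 and XLOC_011049, XLOC_016831 and XLOC_029238 lost their calls in at least 1 such fit. Some of the calls that held are at loci with shared exonic bases, whose counts are uncertain. The shared part was 73.0% for XLOC_017157 and 37.6% for XLOC_017158, both beside XLOC_016830, and 27.2% for XLOC_010405, beside XLOC_010404. XLOC_011048, XLOC_029242 and XLOC_030057 shared no exonic base.

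**Figure D4:**
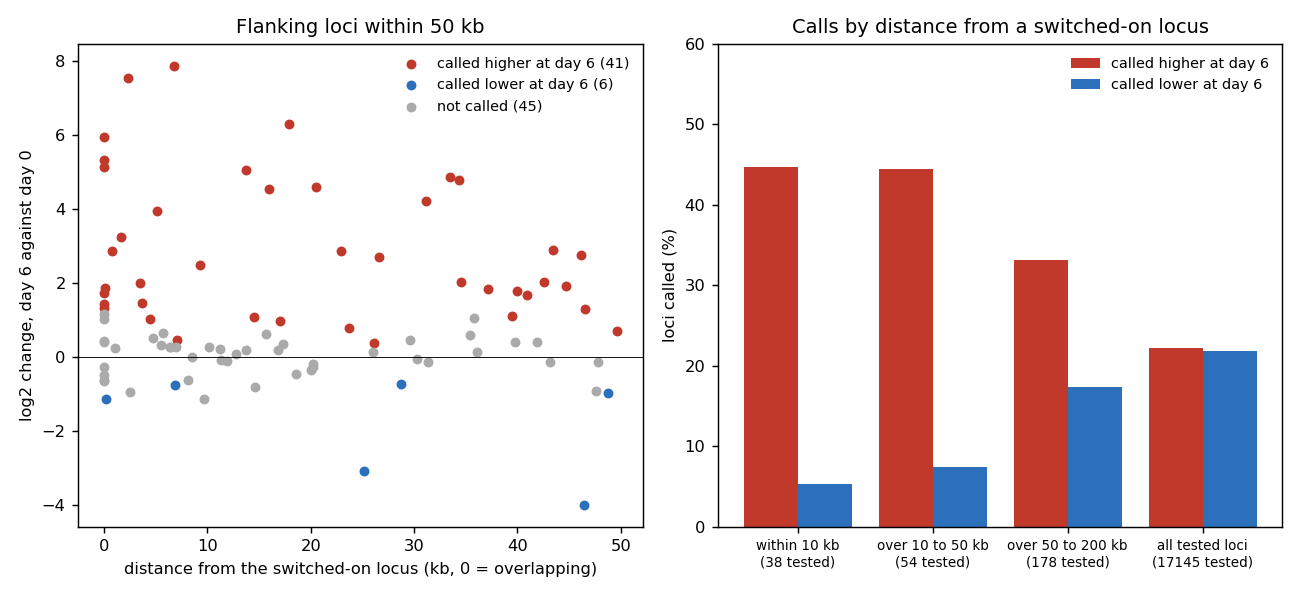
Left, log2 change, day 6 against day 0, of each tested locus within 50 kb of a switched-on locus, by its distance in kb; colours give the limma call. Right, percent of tested loci called higher and lower at day 6 by distance class: 44.7% higher within 10 kb, 44.4% over 10 to 50 kb, 33.1% over 50 to 200 kb and 22.2% among all tested loci.

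The flanking loci with the largest called rises were XLOC_033366 and XLOC_021187, whose order lies within their errors and turns without day 6 replicate 1 (limma log2 changes of 7.21 and 7.73) and with a pseudocount of 5 (5.93 and 7.06). XLOC_033366 lies on chromosome 7 (110998411 to 111001742, minus strand), next to XLOC_033365 on the same strand. It had 821, 410.1 and 112 normalized counts in the day 6 libraries and 0, 2.07 and 0 in the day 0 libraries. The ratio of pooled reads between the stages, scaled by size factors, was 702, with a 95% exact counting interval of 194 to 5807. The limma log2 change was 7.85 (SE 0.77, adjusted p = 0.000146). Across embryoid body libraries it followed XLOC_033365: the ratio of XLOC_033365 to XLOC_033366 was 14.1, 14.5 and 12.6 in replicates 1, 2 and 3. Whether reads of similar sequence were assigned to both loci was not tested. A further locus on that strand, XLOC_033363, followed less closely, with ratios of 294, 153 and 67.4. Most flanking loci did not keep the order of their switched-on locus. The same highest and the same lowest day 6 library were found for 16 of the 41 called higher (39.0%). Among the 51 not called higher it was 11 (21.6%), and no test was made.

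Beside XLOC_021188 lay XLOC_021187 (chromosome 2, 147769738 to 147866268, minus strand), an intergenic locus without annotation and with up to 10 exons. It held 1476, 1703 and 2902 normalized counts at day 6, against 6.98, 13.5 and 8.97 at day 0 (limma log2 change 7.53, SE 0.37, adjusted p = 8.31e-06). It had the order of libraries of XLOC_021188, with ratios of XLOC_021188 to XLOC_021187 of 1.10, 1.28 and 1.00 in replicates 1, 2 and 3. Both lie on the minus strand with a gap of 2.32 kb, and whether they are parts of one transcript was not tested.

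XLOC_000890 (chromosome 1, 34581759 to 34617788, minus strand), beside XLOC_000080, missed the day 6 threshold. Its values were 483, 488 and 592 normalized counts at day 6, against 11.3, 1.04 and 11 at day 0 (limma log2 change 6.28, SE 0.67, adjusted p = 0.000201). Of the exonic bases of XLOC_000890, 24.8% also lie in exons of other loci, which makes its counts uncertain. XLOC_017158 overlaps the start of XLOC_016830 on the other strand (chromosome 18, 53611186 to 53618760) and has no annotation. It had 92.3, 98.4 and 87.7 normalized counts at day 6, against 2.62, 0 and 0 at day 0. The ratio of pooled reads, scaled by size factors, was 96.4, with a 95% exact counting interval of 32.6 to 470.2. The limma log2 change was 5.93 (SE 0.57, adjusted p = 0.000126). Of its exonic bases 37.6% are shared, and without a stated strand-specific count its reads cannot be told apart there from those of XLOC_016830.

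Annotated noncoding or unannotated loci that overlap a switched-on locus on the other strand numbered 6. Of the 5 that were tested 1 was called higher, XLOC_017158, a share near the background of 22.2%. Over all classes and both strands, 6 of 13 tested loci that overlap a switched-on locus were called higher (46.2%). XLOC_021064, inside XLOC_019813, had 28.4, 37.9 and 32.4 normalized counts at day 6, against 54.1, 43.5 and 56.8 at day 0 (limma log2 change -0.63, adjusted p = 0.147), and was called lower with neither trend nor robust estimation (limma adjusted p = 0.0405). XLOC_000760, XLOC_006982 and XLOC_005078, at the starts of XLOC_001542, XLOC_007514 and XLOC_005996, changed by 1.02, 1.14 and -0.28 (limma adjusted p = 0.271, 0.131 and 0.71). With quantile normalization XLOC_006982 was called higher (limma adjusted p = 0.0495). XLOC_003645 lay below the filter on low counts. Coding loci that start within 5 kb in the other direction numbered 2 and were chosen after their values were seen. XLOC_016651 starts 1.04 kb from the start of XLOC_017005. It had 13144, 13138 and 10905 normalized counts at day 6, against 265, 451 and 242 at day 0 (limma log2 change 5.33, SE 0.25, adjusted p = 7.69e-06). XLOC_017005 itself had 1240.0, 1102 and 925 at day 6, against 14, 17.6 and 17 at day 0. XLOC_005156, at the start of XLOC_006080, was not called (limma log2 change -0.51, adjusted p = 0.0833).

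Falls beside switched-on loci were fewer. XLOC_037295 (chromosome 9, 48399410 to 48413429), beside XLOC_037296, had 13.2, 7.18 and 8.35 normalized counts at day 6, against 157, 90.1 and 313 at day 0 (limma log2 change -4.01, SE 0.50, adjusted p = 0.000437). XLOC_037296 had 2091, 2308 and 2629 at day 6, against 49.7, 41.4 and 33.9 at day 0, so neighbours 46.4 kb apart on the same strand moved in opposite directions. XLOC_021018, beside XLOC_021017, had 155, 133 and 188 normalized counts at day 6, against 1142, 752 and 2825 at day 0 (limma log2 change -3.09, SE 0.45, adjusted p = 0.00102). Another locus beside XLOC_021017, XLOC_019762, was called lower (-0.78, limma adjusted p = 0.0171), a call lost without any 1 of the day 6 libraries. Flanking loci called higher numbered 2 at XLOC_021017. For XLOC_019763 the limma log2 change was 0.97 (adjusted p = 0.00854), and the call held under every alternative. The other was XLOC_021016 (2.85, limma adjusted p = 0.0314). That call was lost without day 6 replicate 1 (adjusted p = 0.109), day 6 replicate 2 (0.0912), day 0 replicate 1 (0.0779) or day 0 replicate 3 (0.120), and its limma, edgeR and DESeq2 adjusted p ran from 0.00126 to 0.120 over the alternatives. XLOC_005995 (-1.14, adjusted p = 0.00681) and XLOC_018558 (-0.99, adjusted p = 0.0459) were the other two of the 4 largest falls by limma. The call of XLOC_018558 was lost under 7 alternatives, among them leaving out any 1 of the day 6 libraries (adjusted p = 0.149, 0.153 and 0.0903 without replicates 1, 2 and 3) or day 0 replicate 3 (0.111), over a range of 0.0201 to 0.153 in all.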

How the data were processed

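Signal per locus and library was deposited by the authors as read counts divided by 1 size factor per library. The values themselves show this: 100% of each column came out as whole reads within 0.01 after division by a fixed step. For day 0 replicate 3 the step, 0.997, lies near 1, but its values are not all whole numbers (513.5 for XLOC_022560). The column was treated like the others. DESeq, HTSeq (0.5.4p3), Cufflinks (2.1.1), TopHat2 (2.0.8) and the build mm9 are named, without roles, in the submitters' processing notes. No use of strand in counting was named there (not given in the sources used here). Positions, exons and classes came from the authors' merged assembly as deposited. Unused sample columns numbered 0.

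The 54 loci, the lists and the tests were chosen with earlier results of these data known. The stages were compared with limma 3.58.1 in R 4.3.3, with a robust fit and a variance trend, on the log2 scale after adding 1 to each normalized count. A locus entered where 3 or more libraries reached 10 normalized counts, which 17145 loci did and 1275 did not. Tests were two-sided, without a replicate block, and adjusted by Benjamini-Hochberg over all tested loci. edgeR 4.0.16 and DESeq2 1.42.0 ran on recovered reads as alternatives. The steps were also run on simulated counts with a fixed spread and with changes smaller than those of the switched-on loci. That run does not cover changes from near-zero day 0 counts. A fold is the ratio of the stage means of normalized counts. Ratios with an exact counting interval are instead those of the pooled reads of each stage, scaled by the summed size factors. Exonic kilobases are the merged exons of all models of a locus.

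Loci were named by rule: the 8 highest per exonic kilobase at day 6, the 8 largest changes with a read in every day 0 library, the 4 with the most models, the 4 with the widest day 6 ratio, pairs within 100 kb (none was found), opposite-strand partners, loci next to each threshold, and the 4 largest called flanking rises and falls. The rule's gene symbol lists and the marker lists could not be used, since no identifier matched a symbol. Other tools were Python 3.11.15, pandas 2.3.3, numpy 2.4.6, scipy 1.17.1 and matplotlib 3.10.9. PCR copies of a molecule cannot be told from separate molecules, so intervals and limits cover counting error only.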

Additional observations from a re-analysis of the deposited data

How the results depend on the processing

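The members depend on the thresholds: 33 loci met the rule with under 50 normalized counts at day 0, 96 with under 200, 96 with at least 250 at day 6 and 24 with at least 1000. With quantile normalization 60 loci met it, and with 1 library left out 56 to 65. Of the 41 flanking loci called higher within 50 kb, 17 lay within 10 kb and 26 shared no exonic base, and within 200 kb 100 were called. Leaving out 1 library gave 29 to 44 flanking calls and 2547 to 4530 loci called higher of all tested, against 3799. edgeR gave 38 flanking calls, DESeq2 42 and a minimum of 50 counts 31, and 0 of the 41 turned to a lower call under any alternative run. Of the 41, 29 were called under each alternative that tested them. XLOC_005078, at -0.28 and not called, was at 0.034 with quantile normalization, at 0.20 without day 0 replicate 3 and at -0.77 without day 0 replicate 1, the ends of its range with 1 library left out. The cause of these shifts was not tested. Fits with a replicate block gave 39 flanking calls and 3898 loci higher. The calls of the 54 members are fixed by the rule and say nothing of stability. Deviations of same-numbered libraries correlated at 0.176, 0.134 and 0.074, so the numbers are not shown to pair the samples, although each day 6 library correlated best with its own number. By counting error, a count of 0 in a single library still allows an expected count of up to 3 reads. This limit was used per library for the loci with no day 0 read, although they had none in any of the 3 libraries.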

Other observations

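Outside the limits on class, chromosome, length and Hox windows, 23 further loci had at least 500 normalized counts in every day 6 library and under 100 in every day 0 library. They comprise 7 unannotated intergenic, 4 unannotated antisense, 5 annotated noncoding and 6 coding loci and 1 of another class. The highest was the coding locus XLOC_039178 on chromosome X (50423179 to 50593288, minus strand), with 5755, 5390.2 and 3078 normalized counts at day 6, against 36.6, 50.7 and 60.8 at day 0. The intergenic XLOC_000007 on chromosome 1 (5286117 to 5303987, plus strand) had 2903, 2949 and 2931 at day 6, against 5.23, 19.7 and 8.97 at day 0, and its day 6 libraries barely differed. XLOC_011109, also intergenic, on chromosome 14 (47187007 to 47195914, minus strand), had 2378, 2167 and 1527 at day 6, against 6.11, 2.07 and 3.99 at day 0. These loci were named after their values were seen. Of the 23, XLOC_021187 alone lay within 50 kb of one of the 54 coding loci, and the next nearest was 575 kb away.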
